A study of Mus musculus with 6 samples.

Results

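Semaphorins, plexins and neuropilins form a ligand and receptor system for the guidance of growing axons, and their messages were measured in cultured mouse cortical neurons. The 31 genes were chosen by name: 7 secreted class 3 semaphorins, 13 membrane-bound semaphorins, 9 plexins and 2 neuropilins, out of 49671 genes in the deposited table. All 31 were found there, and 30 had counts high enough to be tested among 16847 genes. Plxnb3, the remaining plexin, had between 0 and 0.0982 CPM (counts scaled to the same library total) in the 6 libraries.

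The neurons came from the neocortex of C57BL/6 embryos at embryonic day 14 and were kept as dissociated cultures. There were 3 groups of 2 libraries each: wild type after 3 days in vitro (DIV3), Ptbp2 knockout (Ptbp2-/-) after 1 day (DIV1), and wild type at DIV1. The series sets wild-type DIV3, when a neurite grows out as the axon, against DIV1, when the neurites all look alike, and it sets the knockout against wild type at DIV1. Ptbp2 encodes a splicing regulator of neurons. No knockout library of DIV3 was analysed here, and neither the allele nor any driver line is named in the labels. The submitters call the libraries of a group biological replicates, but no source says that they came from separate embryos or culture days, so p-values measure the spread between these libraries only.

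A semaphorin binds a plexin, whose cytoplasmic GAP domain then acts on small Ras-family GTPases and, through them, on adhesion and the cytoskeleton of the growth cone. Class 3 semaphorins are secreted, and most of them reach plexins through neuropilins, which hold the ligand while the plexin signals. Membrane-bound semaphorins bind plexins directly, act at cell contacts and can themselves serve as receptors. In the developing cortex the system is known for steering callosal and corticofugal axons, for the outgrowth of dendrites and for the migration of neurons.

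The libraries held between 39104879 and 75522198 expected counts. Ptbp2 itself had 403 and 382 CPM in wild type at DIV3, 474 and 514 CPM in the knockout, and 465 and 429 CPM in wild type at DIV1. A count over the whole gene cannot check the label where a deletion removes only an exon, so knockout denotes the label alone. Of 12 markers of cortical neurons none was at 0, and their summed level was 11800 and 11600 CPM at DIV3, 7020 and 7490 CPM in the knockout, and 8140 and 7920 CPM in wild type at DIV1. Markers of endothelial cells summed to between 3.36 and 5.79 CPM over the 6 libraries. Of the 11 tested markers of pericytes and fibroblasts, 8 were higher at DIV3 and 0 lower, among them Rgs5 (10.6-fold), Col1a1 (6.82-fold) and Pdgfrb (2.01-fold). The sum of all 12 was 95.4 and 124 CPM at DIV3, 149 and 98.3 CPM in the knockout and 95.9 and 98.8 CPM in wild type at DIV1. Within that sum Acta2, which was not called, had 33.9 and 58.9 CPM at DIV3, 118 and 76 CPM in the knockout and 71.4 and 74.2 CPM in wild type at DIV1. Astrocyte markers had 4 of 5 tested genes higher at DIV3 and 1 lower. Oligodendrocyte markers had 3 of 6 higher and interneuron markers 3 of 7 higher, with 0 lower in these 2 lists. Cortical neuron markers had 5 higher and 5 lower. Of 10 radial glia markers 2 were higher and 6 lower. Microglia markers had 1 of 7 tested genes higher and 2 lower, and Cajal-Retzius markers 1 of 6 higher and 1 lower. Over all genes 19.8% were called higher at DIV3 and 16.4% lower. In the knockout 0 of the markers were called, as were 0% of all genes. The 10 radial glia markers summed to 1840 and 1890 CPM at DIV3, 2250 and 2010 CPM in the knockout and 2000 and 1950 CPM in wild type at DIV1. The 8 markers of the oligodendrocyte lineage reached 47 and 38.1 CPM at DIV3, 20.1 and 22.4 CPM in the knockout and 24.2 and 24.7 CPM in wild type at DIV1. For 7 interneuron markers the sums were 178 and 164 CPM at DIV3, 89.5 and 62.9 CPM in the knockout and 72.1 and 80.2 CPM in wild type at DIV1. Whether such cells contributed to the differences given below was not tested, and in bulk RNA fewer cells of a type and less RNA per cell cannot be told apart.

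Most of the system was expressed in these cultures. Levels of different genes were compared per transcript length, as TPM, transcripts scaled to the same total in each library, and 23 of the 31 genes reached 10 TPM or more in all 6 libraries. At least a part of each class was among them, so that secreted ligands, membrane-bound ligands, plexins and both neuropilins were present together. Sema3d, Sema3g and Plxnb3 were under 1 TPM in all 6 libraries.

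Plxna2, a plexin that receives signals from Sema6a and, with neuropilins, from class 3 semaphorins, was the most abundant of the 31 in wild type. Its level was 142 and 116 TPM at DIV3, 61.7 and 91.2 TPM in the knockout, and 111 and 102 TPM in wild type at DIV1. Plxnb2, a receptor of Sema4c and Sema4g, had 78.0 and 75.1 TPM at DIV3, 134 and 105 TPM in the knockout, and 98.5 and 104 TPM in wild type at DIV1. The ranges of these genes met in wild type at DIV1. In the knockout the order of the pair rested on the length used: with every gene divided by its longest transcript, Plxna2 averaged 96.5 TPM there and Plxnb2 81.2 TPM.

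Sema3c was the most abundant secreted ligand, with 69.9 and 81.8 TPM at DIV3, 60.4 and 71.0 TPM in the knockout, and 75.9 and 75 TPM in wild type at DIV1. It is known as a ligand for Nrp1 on callosal axons. Sema3a, the classic repellent of cortical axons, averaged 17.8 ± 1.77 TPM at DIV3, 12 ± 2.29 TPM in the knockout and 15.4 ± 1.09 TPM in wild type at DIV1 (SD, n = 2 each). Sema3f, the ligand of Nrp2, averaged 20.1 ± 0.13 TPM at DIV3, 13.2 ± 2.76 TPM in the knockout and 16.9 ± 0.70 TPM in wild type at DIV1. In the knockout the libraries of Sema3a and Sema3f overlapped.

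Among the membrane-bound ligands, Sema7a led at DIV3 with 97.3 and 95.8 TPM, against 55.7 and 56.2 TPM in wild type at DIV1. Sema6c had 73.0 and 74.0 TPM at DIV3, 53.9 and 57.7 TPM in the knockout, and 64.3 and 64.9 TPM in wild type at DIV1. Sema4c had 72.0 and 72.6 TPM at DIV3, 43.3 and 51.9 TPM in the knockout, and 57.1 and 60.1 TPM in wild type at DIV1. The place of Sema6c depended on which transcripts carry the counts, since by its longest transcript its mean was 42.3 TPM at DIV3, 31.4 TPM in the knockout and 37.0 TPM in wild type at DIV1.

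Summed by class, plexins and membrane-bound semaphorins were nearly level, and the secreted class and neuropilins were lower. The 9 plexins reached 533 and 477 TPM at DIV3, 340 and 385 TPM in the knockout, and 423 and 422 TPM in wild type at DIV1. The 13 membrane-bound semaphorins reached 500 and 483 TPM at DIV3, 340 and 401 TPM in the knockout, and 427 and 439 TPM in wild type at DIV1. The neuropilin pair, whose products are shared as coreceptors by the secreted class, summed to 94.1 and 77.5 TPM at DIV3, 36.5 and 56.6 TPM in the knockout, and 69.3 and 62.4 TPM in wild type at DIV1. The 7 secreted semaphorins summed to 112 and 121 TPM at DIV3, 83.7 and 102 TPM in the knockout, and 110 and 109 TPM in wild type at DIV1. For each class the DIV3 libraries were above, and the knockout libraries below, both wild-type libraries of DIV1. The sums were not corrected for the trend with transcript length that is given below for both comparisons.

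**Figure D1:**
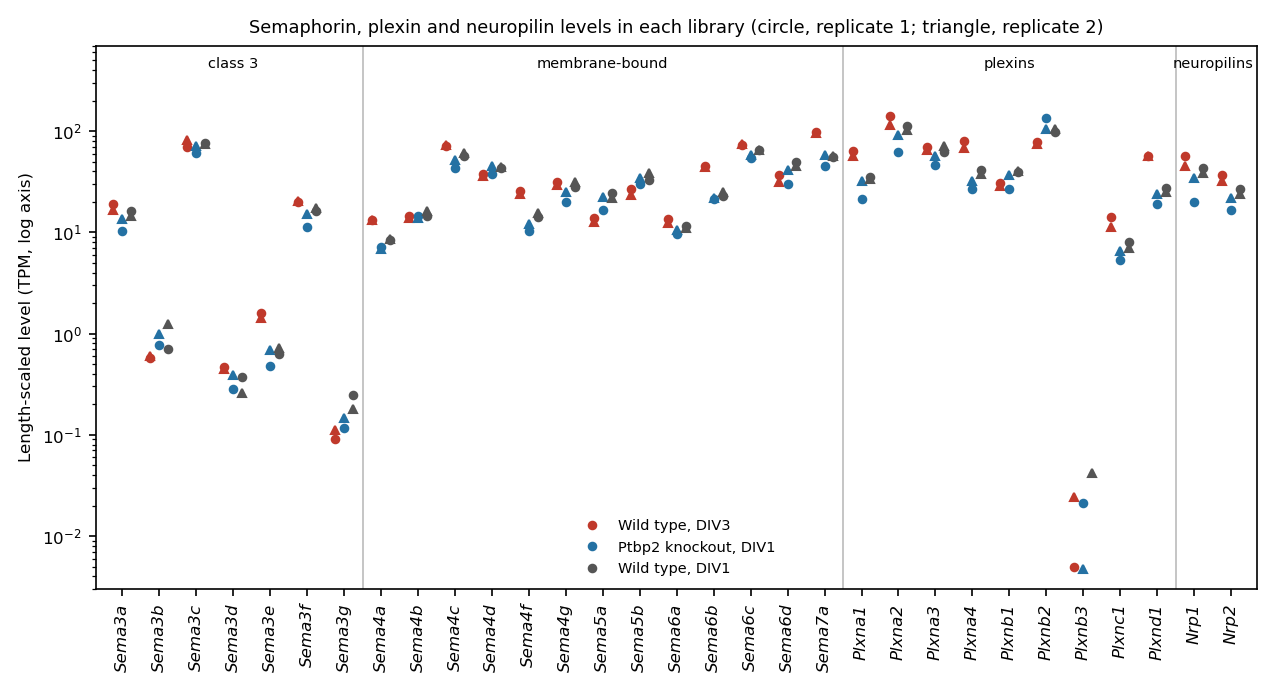
Length-scaled level (TPM, log axis) of each of the 31 genes in each library, grouped as class 3 semaphorins, membrane-bound semaphorins, plexins and neuropilins; within a gene the columns are wild type DIV3, Ptbp2 knockout DIV1 and wild type DIV1, circles are replicate 1 and triangles replicate 2. Most genes lie above 10 TPM, Sema3d, Sema3g and Plxnb3 lie under 1 TPM, and the library in which Plxnb3 had no count is not drawn.

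In wild-type neurons, DIV3 against DIV1, 12 of the 30 tested genes were higher and 6 lower. Over all 16847 genes, 19.8% were called higher and 16.4% lower (edgeR quasi-likelihood test with Benjamini-Hochberg adjustment over all genes, called at an adjusted p under 0.05). The median log2 fold change of the 30 genes was 0.29, against -0.02 over all genes. Both DIV3 libraries lay above both DIV1 libraries for 20 of the 30, against 37.3% of all genes, and below them for 7, against 38.9%. Scaling by library totals instead of TMM factors gave 11 higher and 7 lower, with 15.2% of all genes higher and 23.7% lower. The DIV3 fold change also moved with transcript length. Over 5 equal groups of all genes, from the shortest to the longest transcripts, its median was -0.16, -0.08, -0.02, 0.05 and 0.15. Of the 30 genes, 18 were in the group with the longest transcripts. With the trend against transcript length removed, 13 were higher and 7 lower, against 23% and 21.2% of all genes. The median of the 30 genes was then 0.20, against -0.005 over all genes. Calls in both directions rested on having 2 libraries a group. Among the higher genes, Sema4a, Sema4c, Sema6c and Nrp2 lost the call when 1 or more single wild-type libraries were left out. So did Sema4d, Sema5b, Sema6d, Plxnb1 and Plxnb2 among the lower genes. The median of the 30 genes was 0.23 and 0.31 without replicate 1 or replicate 2 of DIV3. It was 0.30 and 0.27 without replicate 1 or replicate 2 of wild type at DIV1. Of the 18 called genes, 9 held their call and sign under all 16 alternative settings, and they are Sema3e, Sema4f, Sema5a, Sema6b, Sema7a, Plxna1, Plxna4, Plxnc1 and Plxnd1.

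Of the 7 secreted semaphorins only Sema3e passed the test, and it was higher at DIV3. Sema3e is a ligand that binds Plxnd1 directly, without a neuropilin. It was measured at 5.12 and 4.77 CPM at DIV3, against 1.97 and 2.26 CPM at DIV1. Both DIV3 libraries lay above both DIV1 libraries, and the log2 fold change was 1.23 ± 0.18 (SE; adjusted p = 0.00238, edgeR). Sema3e remained a scarce message even so, at 1.60 and 1.44 TPM at DIV3, against 0.63 and 0.71 TPM at DIV1.

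The other 6 secreted ligands had log2 fold changes between -1.05 and 0.68 and were not called. Sema3a stood at 51.8 and 47.2 CPM at DIV3, against 41.7 and 38.0 CPM at DIV1 (log2 fold change 0.31 ± 0.11, adjusted p = 0.0596, edgeR). Sema3f stood at 22.8 and 23.0 CPM at DIV3, against 18.3 and 19.3 CPM at DIV1 (0.29 ± 0.10, adjusted p = 0.0557). For both ligands the DIV3 libraries lay above the DIV1 libraries, and DESeq2 called both higher. Over the 16 alternatives the adjusted p ran between 0.00696 and 0.321 for Sema3a and between 0.0153 and 0.272 for Sema3f. Sema3c differed little, with 170 and 193 CPM at DIV3, against 168 and 162 CPM at DIV1 (0.14 ± 0.11, adjusted p = 0.377). Sema3b, Sema3d and Sema3g were each at or under 1.37 CPM in all libraries, and the standard errors of their log2 fold changes, 0.35, 0.24 and 0.35, were larger than those of the abundant ligands.

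Among the 13 membrane-bound semaphorins, 6 were higher at DIV3 and 4 were lower. Those higher were Sema4a, Sema4c, Sema4f, Sema6b, Sema6c and Sema7a, and those lower were Sema4d, Sema5a, Sema5b and Sema6d. Both class 5 members, which carry thrombospondin repeats beside the semaphorin domain, were thus among the lower ones. Class 4 and class 6 each held genes of both directions.

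Sema7a, the semaphorin held to the membrane by a lipid anchor and a ligand of Plxnc1 and of integrin beta 1, was at 144 and 150 CPM at DIV3, against 81.7 and 84.4 CPM at DIV1. The groups did not overlap, and its level was 1.77-fold higher (log2 fold change 0.82 ± 0.08, adjusted p = 0.000512, edgeR). Sema4f, a semaphorin found at synapses, had 46.2 and 43.8 CPM at DIV3, against 25.7 and 27.7 CPM at DIV1, a 1.68-fold higher level (adjusted p = 0.00138). Sema4a had 10.2 and 10.8 CPM at DIV3, against 6.55 and 6.54 CPM at DIV1, with a log2 fold change of 0.68 ± 0.13 (adjusted p = 0.00629). The call of Sema4a was lost when replicate 1 or replicate 2 of wild type at DIV1 was left out, at 0.68 in each fit. These 3 genes had no DIV3 library within the range of the DIV1 libraries.

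Smaller increases were called for Sema4c and Sema6c. Sema4c, the ligand of Plxnb2, had 112 and 118 CPM at DIV3, against 87.9 and 89.3 CPM at DIV1 (1.30-fold, adjusted p = 0.00627, edgeR). It was not called without DIV3 replicate 2 (log2 fold change 0.34), nor without replicate 1 (0.36) or replicate 2 (0.39) of wild type at DIV1. Sema6c had 81.5 and 78.4 CPM at DIV3, against 65.7 and 68.4 CPM at DIV1 (1.19-fold, adjusted p = 0.0339). The call of Sema6c was lost with library totals (log2 fold change 0.14) and when any wild-type library was left out, and over the 16 alternatives its adjusted p ran between 0.00402 and 0.229.

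Sema5a showed the largest decrease among the called members. It had 69.7 and 65.5 CPM at DIV3, against 122 and 110 CPM at DIV1, and the groups did not overlap (log2 fold change -0.77 ± 0.11, adjusted p = 0.00187, edgeR). Sema5b had 41.5 and 36.2 CPM at DIV3, against 51.0 and 55.7 CPM at DIV1 (-0.46 ± 0.10, adjusted p = 0.0106). Sema6d, a ligand and reverse-signalling receptor that pairs with Plxna1, had 103 and 91.8 CPM at DIV3, against 138 and 128 CPM at DIV1 (-0.45 ± 0.12, adjusted p = 0.0231). In all 3 genes both DIV3 libraries were the lower ones. Sema4d, the ligand of Plxnb1, had 45.8 and 40.2 CPM at DIV3, against 59.1 and 60.2 CPM at DIV1 (-0.47 ± 0.14, adjusted p = 0.0389). Its length-scaled level was 37.3 and 35.8 TPM at DIV3, against 43.6 and 43.8 TPM at DIV1, and by its longest transcript the means were 25.9 TPM at DIV3 and 37.4 TPM at DIV1. Sema4d and Sema6d were not called when any single wild-type library was left out. Sema5b was not called without DIV3 replicate 2 (-0.36) or without replicate 2 of wild type at DIV1 (-0.39). Sema4b, Sema4g and Sema6a were not called, with log2 fold changes between -0.07 and 0.21, and that of Sema4g, 0.08, changed sign to -0.04 with library totals.

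Sema6b, a transmembrane ligand of Plxna4, was the semaphorin with the smallest adjusted p. It had 69.5 and 70.9 CPM at DIV3, 36.4 and 33.5 CPM in the knockout, and 33.7 and 36.8 CPM in wild type at DIV1. The DIV3 level was 1.99-fold that of DIV1 (log2 fold change 1.00 ± 0.09, adjusted p = 0.000361, edgeR), and both DIV3 libraries stood apart from the other 4. The gene has 2 annotated transcripts, which start 6500 bases apart on the minus strand of chromosome 17, encode the same protein and end at different places. The 300 bases around each start, 250 before it and 50 after it, are shown because the 2 transcripts differ in their starts. They are RefSeq's promoters for GRCm38.p6, matched to Sema6b by symbol, with the motif GGGCGG in capitals. RefSeq's upstream start is that of Sema6b-201, and its downstream start lies 9 bases before that of Sema6b-202.
RefSeq start at Sema6b-201, chr17:56140294-56140593, minus strand: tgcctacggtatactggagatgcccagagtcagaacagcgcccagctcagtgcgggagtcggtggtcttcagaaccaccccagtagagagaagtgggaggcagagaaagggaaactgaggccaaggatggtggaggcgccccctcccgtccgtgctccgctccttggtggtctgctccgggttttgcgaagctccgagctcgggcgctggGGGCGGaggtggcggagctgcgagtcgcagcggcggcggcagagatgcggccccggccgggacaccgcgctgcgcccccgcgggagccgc
RefSeq start near Sema6b-202, chr17:56133803-56134102, minus strand: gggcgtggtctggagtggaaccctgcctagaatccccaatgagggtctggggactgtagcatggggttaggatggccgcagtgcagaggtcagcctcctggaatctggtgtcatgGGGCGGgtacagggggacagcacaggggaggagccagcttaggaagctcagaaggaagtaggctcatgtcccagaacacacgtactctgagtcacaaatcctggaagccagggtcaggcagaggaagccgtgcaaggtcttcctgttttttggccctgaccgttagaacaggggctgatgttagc

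The GC content of these sequences was 69.0% at the upstream start and 58.0% at the downstream start, against a median of 52.7% over all promoters in the table. Each holds GGGCGG once, and 35.7% of 32851 promoters hold it 1 or more times on either strand. Neither holds CANNTG, found in 72.3% of promoters, nor TATAAA, found in 13.6%. The transcript from the upstream start, Sema6b-201, was estimated at 19.0 and 19.8 CPM at DIV3, 3.74 and 3.93 CPM in the knockout, and 4.15 and 2.29 CPM in wild type at DIV1. Sema6b-202 was estimated at 50.6 and 51.1 CPM at DIV3, 32.7 and 29.6 CPM in the knockout, and 29.5 and 34.5 CPM in wild type at DIV1. Sema6b-201 thus took 27.3% and 27.9% of the gene's counts at DIV3, against 12.3% and 6.23% at DIV1. The difference in share did not pass the main test (adjusted p = 1, edgeR diffSpliceDGE with the Simes method). It was called by the gene-level F test of the same tool (adjusted p = 0.0282) and by limma's diffSplice (adjusted p = 0.0216), and over the 11 alternatives the adjusted p ran between 0.0216 and 1. Sema6b-201 also has 682 bases at its 3′ end that Sema6b-202 lacks, and the deposited tables do not separate reads of the start from reads of the end.

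The receptors followed a similar split, with 4 of the 8 tested plexins higher at DIV3 and 2 lower. Those higher were Plxna1, Plxna4, Plxnc1 and Plxnd1, and those lower were Plxnb1 and Plxnb2. Plxnb1 and Plxnb2 both lost the call when any single wild-type library was left out, and a difference between plexins of the A and B types was not tested.

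Plxnd1, the receptor of Sema3e, had the smallest adjusted p of the 30 genes. It was measured at 127 and 118 CPM at DIV3, against 60.7 and 56.3 CPM at DIV1. The groups did not overlap, and the level was 2.10-fold higher (log2 fold change 1.07 ± 0.08, adjusted p = 0.000208, edgeR). Plxna4, a receptor of class 6 semaphorins and, with Nrp1, of Sema3a, had 472 and 423 CPM at DIV3, against 246 and 222 CPM at DIV1 (0.94 ± 0.10, adjusted p = 0.000617). Plxna1 had 266 and 240 CPM at DIV3, against 145 and 141 CPM at DIV1 (0.82 ± 0.14, adjusted p = 0.00396). Plxnc1, the receptor of Sema7a, had 47.5 and 40.0 CPM at DIV3, against 26.6 and 23.8 CPM at DIV1 (0.80 ± 0.12, adjusted p = 0.00303). All 4 of these plexins were higher in both DIV3 libraries than in either DIV1 library.

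Plxna2 and Plxna3, the other receptors of the A type, were not called. Plxna2 had 696 and 607 CPM at DIV3, against 548 and 507 CPM at DIV1 (log2 fold change 0.30 ± 0.15, adjusted p = 0.155, edgeR). Plxna3 had 160 and 149 CPM at DIV3, against 134 and 142 CPM at DIV1 (0.16 ± 0.09, adjusted p = 0.197). In both genes the DIV3 libraries were above the DIV1 libraries. With the length trend removed, the log2 fold change was 0.06 for Plxna2 and 0.006 for Plxna3. When the fit held only the 4 wild-type libraries, both were called higher, with an adjusted p of 0.0326 for Plxna2 (range over 16 alternatives between 0.023 and 0.507) and of 0.0487 for Plxna3 (between 0.0464 and 0.958). Plxnb1, the receptor of Sema4d, had 97.4 and 97.5 CPM at DIV3, against 121 and 128 CPM at DIV1 (-0.35 ± 0.08, adjusted p = 0.0121). Plxnb2 had 173 and 174 CPM at DIV3, against 207 and 205 CPM at DIV1 (-0.25 ± 0.07, adjusted p = 0.0242). Both DIV3 libraries of each were the lower ones.

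Of the neuropilins, Nrp2 was higher at DIV3 and Nrp1 was not called. Nrp2, which binds Sema3f, had 113 and 101 CPM at DIV3, against 79.7 and 72.2 CPM at DIV1 (1.41-fold, log2 fold change 0.50 ± 0.11, adjusted p = 0.0142, edgeR). The call of Nrp2 was lost without DIV3 replicate 1 (log2 fold change 0.41). It was also lost without replicate 1 (0.57) or replicate 2 (0.43) of wild type at DIV1. Nrp1, which binds Sema3a and VEGF, had 93.5 and 77.5 CPM at DIV3, against 69.0 and 62.8 CPM at DIV1 (0.38 ± 0.20, adjusted p = 0.185). For both genes the DIV3 libraries lay above those of DIV1. When the fit held only the 4 wild-type libraries, Nrp1 was called higher (adjusted p = 0.0101, in a range over 16 alternatives between 0.00845 and 0.566), and its SE in the 6-library fit also takes in the knockout pair, at 37.3 and 57.9 CPM.

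Several ligands and receptors known to bind each other stood side by side in these values. Sema3e and Plxnd1 were both higher at DIV3, with log2 fold changes of 1.23 and 1.07. Sema7a and Plxnc1 were both higher, at 0.82 and 0.80, as were Sema6b and Plxna4, at 1.00 and 0.94. Sema4d and Plxnb1 were both lower, at -0.47 and -0.35. Sema4c and Plxnb2 had opposite signs, at 0.38 and -0.25, and so did Sema6d and Plxna1, at -0.45 and 0.82. The pairs were listed after these values had been seen, and the association within pairs was not tested.

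**Figure D2:**
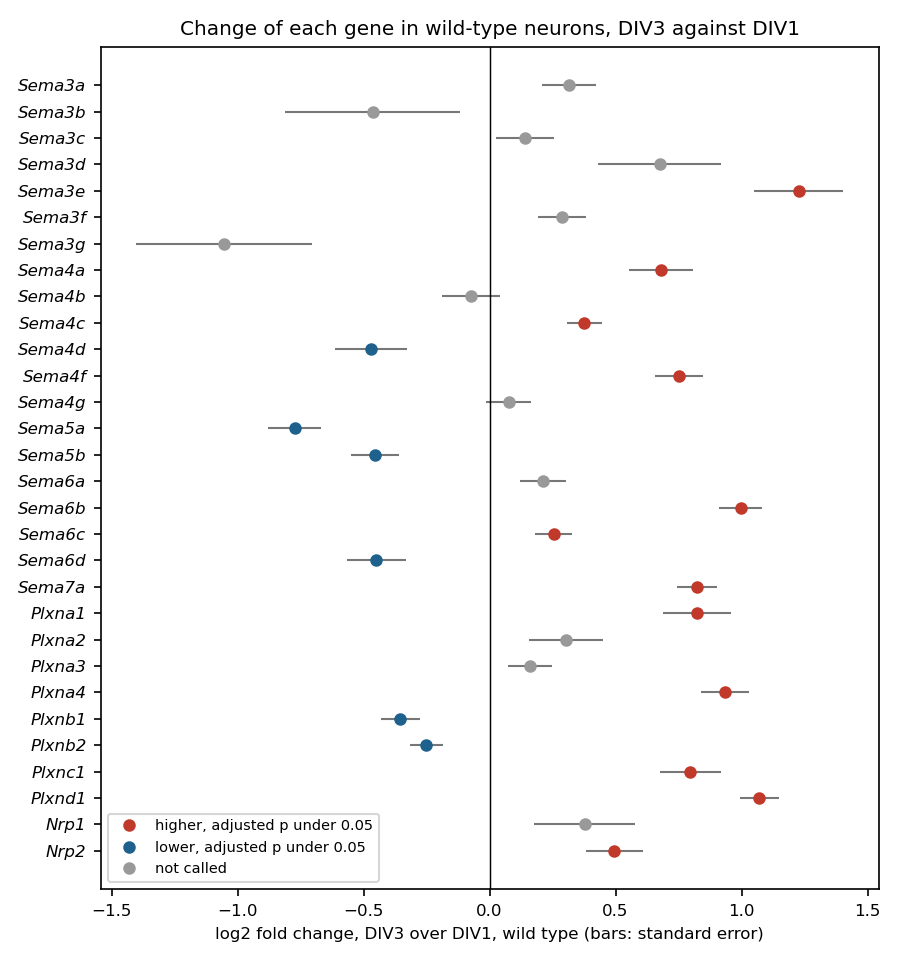
Log2 fold change of each of the 30 tested genes in wild-type neurons, DIV3 over DIV1, with bars of 1 standard error; red points passed the test as higher, blue points as lower, grey points were not called. The red points reach from Sema6c at 0.25 to Sema3e at 1.23, and the blue points from Plxnb2 at -0.25 to Sema5a at -0.77.

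The wider pathway was described by 5 lists of partners and effectors, whose counts stand against 19.8% of all genes called higher and 16.4% called lower. Of 10 coreceptors and alternative receptors, 5 were higher at DIV3 and 2 lower. Met, a receptor tyrosine kinase that associates with plexins of the B type, was at 53.4 ± 0.36 CPM at DIV3 and 5.92 ± 0.51 CPM at DIV1 (SD, n = 2 each; log2 fold change 3.17 ± 0.13, adjusted p = 5.85e-05, edgeR). Chl1 and Nrcam, cell adhesion molecules of the L1 family that associate with neuropilins, had log2 fold changes of 1.36 and 0.78 and were both called. The 2 lower genes had log2 fold changes of -0.998 for Erbb2 and -0.383 for Cntn2. Itgb1, the integrin beta 1 that receives Sema7a, was not called, at -0.11 ± 0.09 (adjusted p = 0.372).

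Of 8 effectors of the CRMP and MICAL families, which carry class 3 signals to microtubules and actin, 6 were higher and 1 was lower, and 4 were higher with library totals or with any single wild-type library left out. The MICAL oxidoreductases moved apart, with Mical2 at 32.2 ± 2.51 CPM at DIV3 and 5.47 ± 0.04 CPM at DIV1 (adjusted p = 0.000143, edgeR) and Mical1 at 9.72 ± 1.33 CPM at DIV3 and 33.4 ± 2.0 CPM at DIV1 (adjusted p = 0.000216). Dpysl3, of the CRMP family, had a log2 fold change of 0.87 ± 0.11 and was called, and Dpysl2, at 0.33 ± 0.23, was not. Among 18 GTPases, exchange factors and adaptors that bind plexins, 7 were higher, 4 lower and 7 not called, and 4 were higher and 3 lower with any single wild-type library left out. Rnd1, a GTPase that binds plexins, had a log2 fold change of 1.52, Farp1, an exchange factor that binds plexins of the A type, 0.90, and Rras2, a relative of the Ras proteins that plexins act on, 0.91, and each was called. The 4 lower genes had log2 fold changes of -1.735 for Rras, -1.429 for Rnd2, -0.656 for Rnd3 and -0.395 for Gipc1. Rac1 was not called, at 0.26 ± 0.11 (adjusted p = 0.102, edgeR).

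Of 11 kinases and actin regulators downstream, 4 were higher and 0 lower, but 1 was higher without DIV3 replicate 2 and 0 were without any other single wild-type library. Those named are Fyn at a log2 fold change of 0.37, Cdk5r1 at 0.50 and Pak1 at 0.43. Cfl1, cofilin, was not called at 0.17 ± 0.13. None of the 5 VEGF ligands of neuropilins was called, and Vegfa had a log2 fold change of -0.15 ± 0.23.

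In the knockout at DIV1 no semaphorin, plexin or neuropilin passed the test against wild type, and the same was true of all genes (0% called, edgeR quasi-likelihood test). At an unadjusted p under 0.05, 9 of the 30 genes were lower and 0 higher, against 7.27% of all genes lower and 7.43% higher. DESeq2 called 1 of the 30, Sema4d, with 44 of all genes higher and 160 lower, and limma-voom called 0 of the 30. The log2 fold change was negative for 27 of the 30, against 50.1% of all genes, with a median of -0.17, against -0.001 over all genes. In 19 of the 30, both knockout libraries were below both wild-type libraries, which held for 26.2% of all genes, and in 0 were they both above, against 26.9% of all genes.

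The knockout libraries differed from each other. Of the 30 genes, 24 were lower in knockout replicate 1 than in replicate 2. Without knockout replicate 2, 13 of the 30 were called lower and 0 higher, against 17.3% of all genes lower and 14.8% higher. Without replicate 1, 0 of the 30 were called, against 0.174% of all genes lower and 0.0756% higher. The difference moved with transcript length: over 5 equal groups of all genes ordered by length, from a median of 980 nt to a median of 5906 nt, the median log2 ratio of knockout replicate 1 over replicate 2 was 0.18, 0.11, 0.01, -0.07 and -0.21. The knockout fold change over wild type moved the same way, with medians of 0.22, 0.12, 0.02, -0.07 and -0.19.

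Semaphorins and plexins are long messages, and 18 of the 30 were in the group with the longest transcripts and 0 in the 2 groups with the shortest. The 18 had a median log2 fold change of -0.24 in the knockout. With the trend against length removed from each library, 17 of the 30 genes were negative and 13 positive, against 48.5% negative over all genes, and the median was -0.03. The count of negative values is therefore reported with and without this correction, and no gene of the 30 was called lower or higher with it, while 0.101% of all genes were called lower and 0.0476% higher.

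**Figure D3:**
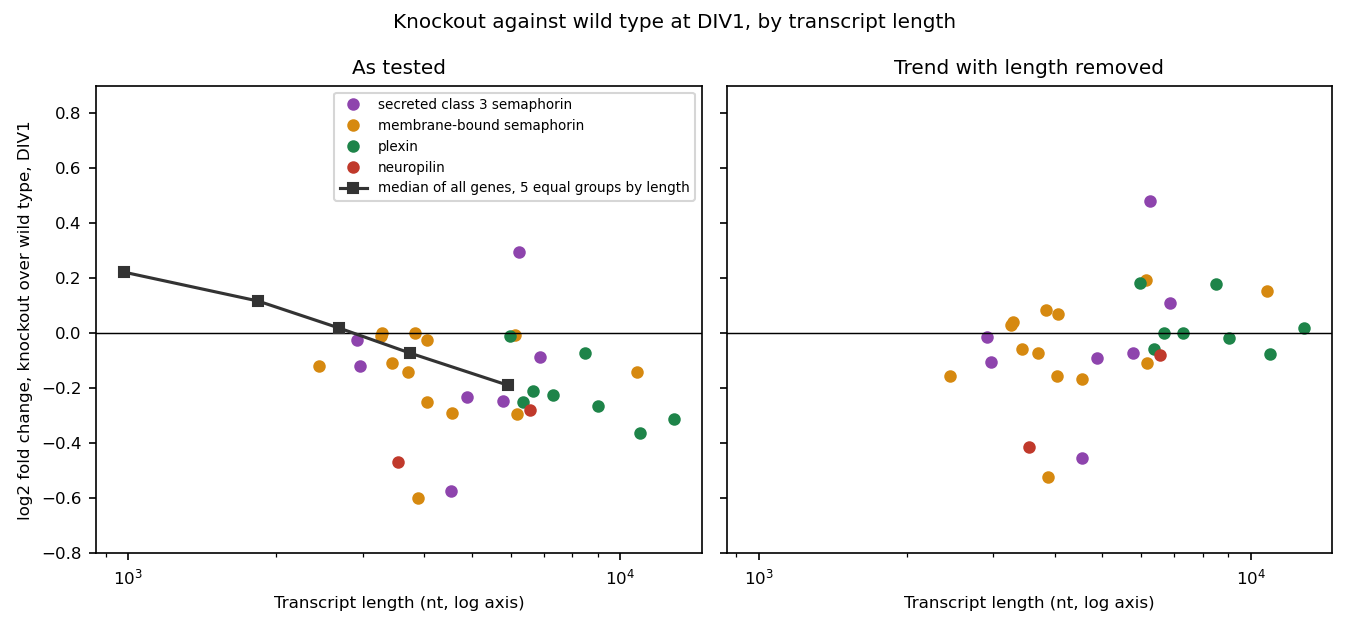
Log2 fold change of each of the 30 tested genes, knockout over wild type at DIV1, against transcript length (nt, log axis), as tested on the left and with the trend against length removed on the right; colours mark the 4 classes, and black squares join the medians of all genes in 5 equal groups of length, from 0.22 to -0.19. Most points on the left lie below 0, and the points on the right lie on both sides of 0, with Sema3g, Sema4d and Nrp1 the lowest in both.

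Sema4d, the ligand of Plxnb1, had the smallest unadjusted p of the 30. It was measured at 33.8 and 44.9 CPM in the knockout, against 59.1 and 60.2 CPM in wild type. Both knockout libraries were the lower ones, and the log2 fold change was -0.60 ± 0.14 (adjusted p = 0.315, edgeR). It was -0.52 ± 0.11 with the length trend removed (adjusted p = 0.169), and DESeq2 called it (adjusted p = 0.0171). Over the alternative settings its adjusted p ran between 0.00183, without knockout replicate 2, and 0.837, without replicate 1 of wild type at DIV1.

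The level of Sema4d per length depended on the estimated split between its transcripts. With that split it was 38.0 and 45.4 TPM in the knockout, against 43.6 and 43.8 TPM in wild type, and the groups overlapped. By its longest transcript the mean was 22.8 TPM in the knockout and 37.4 TPM in wild type. The estimated share of Sema4d-204, a transcript of 1249 bases with 5 exons, was 30.9% and 21.4% in the knockout, against 7.37% and 9.16% in wild type. Sema4d-201, of 4482 bases with 16 exons, took 30.8% and 51.2% in the knockout, against 81.4% and 53.3% in wild type. The difference in transcript usage of Sema4d did not pass its test (adjusted p = 1, edgeR diffSpliceDGE).

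Both neuropilins were lower in both knockout libraries without passing the test. Nrp1 had 37.3 and 57.9 CPM in the knockout, against 69.0 and 62.8 CPM in wild type (log2 fold change -0.47 ± 0.20, adjusted p = 0.333, edgeR). Without knockout replicate 1 the value was -0.19, and without replicate 2 it was -0.82 (adjusted p = 0.00266, in a range over 16 alternatives up to 0.837). Nrp2 had 57.0 and 68.2 CPM in the knockout, against 79.7 and 72.2 CPM in wild type (-0.28 ± 0.11, adjusted p = 0.333), and its value was -0.08 with the length trend removed. Nrp1, at 3541 nt, is shorter than Nrp2, at 6544 nt, and its own value with the trend removed was -0.41 ± 0.17 (adjusted p = 0.363).

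The plexins had log2 fold changes between -0.36 and -0.01. Plxna2 had 354 and 467 CPM in the knockout, against 548 and 507 CPM in wild type (-0.36 ± 0.15, adjusted p = 0.333, edgeR). Plxna4 had 181 and 196 CPM in the knockout, against 246 and 222 CPM in wild type (-0.31 ± 0.10, adjusted p = 0.333). Neither gene had knockout and wild-type libraries that overlapped. With the length trend removed, the value of Plxna2 was -0.08 and that of Plxna4 was 0.02, so both lost most of the difference. Plxna3, Plxna4, Plxna2 and Plxnd1 were the 4 plexins with an unadjusted p under 0.05. Plxnb2 was at 208 and 202 CPM in the knockout, against 207 and 205 CPM in wild type.

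The secreted ligands had log2 fold changes between -0.57 and 0.30 in the knockout. Sema3a had 31.1 and 36.0 CPM in the knockout, against 41.7 and 38.0 CPM in wild type (-0.25 ± 0.11, adjusted p = 0.333, edgeR). Sema3c had 126 and 155 CPM in the knockout, against 168 and 162 CPM in wild type (-0.23 ± 0.11, adjusted p = 0.343). For both, the knockout libraries were below the wild-type libraries, and with the length trend removed the values were -0.07 and -0.09. The membrane-bound ligands Sema4f, Sema4g and Sema6d had an unadjusted p under 0.05 beside Sema4d, with log2 fold changes of -0.25, -0.29 and -0.29. Sema6b, Sema7a and Sema4b, by contrast, had log2 fold changes of -0.01, 0.002 and 0.001.

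No gene of the 52 in the 5 pathway lists was called in the knockout by edgeR, where 0% of all genes were called. DESeq2 called 2 of them lower and 0 higher, against 1.02% of all genes lower and 0.281% higher. The fit without a filter on low counts called 3 higher and 3 lower, against 1.92% and 2.09% of all genes. The calls also depended on which knockout library was left out, both in these lists and over all genes. The most abundant gene of each list had a log2 fold change of -0.18 ± 0.10 for Cntn2, -0.09 ± 0.11 for Dpysl3, 0.38 ± 0.17 for Rnd2, 0.31 ± 0.13 for Cfl1 and -0.22 ± 0.23 for Vegfa.

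Since Ptbp2 is a splicing regulator, the transcripts of the same genes were compared too. Of 7645 genes with 2 or more transcripts above the share limit of 5%, 18 were among the 31, and 0 of these were called in either comparison, against 0.458% of the tested genes for DIV3 against DIV1 and 0.562% for the knockout against wild type (edgeR diffSpliceDGE, called at an adjusted p under 0.05 and a share difference of 10 percentage points). At an unadjusted p under 0.05 and the same share difference, Sema6b alone passed for DIV3, against 2.41% of the tested genes, and Plxna3 alone for the knockout, against 3.51%. The gene-level F test called Sema6b for DIV3 and 0 of the 18 for the knockout.

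Nrp2 and Sema6d have alternative segments that change the protein, and 3 of them are shown as examples chosen after their estimated use had been seen. The a form of Nrp2 can carry a splice-site extension of 15 bases and a cassette exon of 51 bases before its membrane-spanning part, and these add 5 and 17 codons. Sema6d has a splice-site extension of 39 bases, a first cassette exon of 57 bases, or 19 codons, and a second cassette exon of 168 bases, of which the first cassette exon is shown. In each line the segment is in capitals, and the 15 bases on either side are those of the transcript, read from the transcript sequences of GENCODE M21 (GRCm38, plus strand).
Nrp2 extension, chr1:62786302-62786316: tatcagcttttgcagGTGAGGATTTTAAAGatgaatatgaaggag
Nrp2 cassette exon, chr1:62812534-62812584: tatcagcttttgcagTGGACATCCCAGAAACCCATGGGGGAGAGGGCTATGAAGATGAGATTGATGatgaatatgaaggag
Sema6d first cassette exon, chr2:124660705-124660761: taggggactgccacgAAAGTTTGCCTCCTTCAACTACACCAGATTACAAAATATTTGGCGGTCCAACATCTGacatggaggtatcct

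The cassette exon of Nrp2 was carried by 29.3% and 45.9% of the counts of the a form at DIV3, 82.0% and 49.0% in the knockout, and 43.2% and 44.7% in wild type at DIV1. The knockout libraries were above the wild-type libraries of DIV1 but far from each other, with a mean of 65.5% ± 23.3 (SD, n = 2). The extension was carried by 11.7% and 10% of Nrp2 counts at DIV3, 2.82% and 21.8% in the knockout, and 14.0% and 21.7% in wild type at DIV1. The b form, which ends in another membrane-spanning part and tail, held between 10.9% and 13.8% in all 6 libraries. Transcript usage of Nrp2 did not pass the test for the knockout (adjusted p = 1, edgeR diffSpliceDGE) or for DIV3 (adjusted p = 1).

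The first cassette exon of Sema6d was in 25.4% and 32.7% of the counts at DIV3, 16.7% and 30.7% in the knockout, and 21.6% and 19.8% in wild type at DIV1. The DIV3 libraries were above those of wild type at DIV1, and the knockout libraries lay on either side of them. The second cassette exon averaged 16.8% at DIV3, 16.3% in the knockout and 15.9% in wild type at DIV1, and the extension averaged 19.6% at DIV3, 12.2% in the knockout and 11.8% in wild type at DIV1. The usage test gave an adjusted p = 1 for DIV3 and for the knockout (edgeR diffSpliceDGE).

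Of 25 members with transcripts annotated with a retained intron, the summed share of these was higher in both knockout libraries than in both wild-type libraries of DIV1 for 5 (Sema3c, Sema4a, Sema6a, Plxna3 and Plxnb2), lower for 3 (Sema4f, Sema6d and Plxna2) and overlapping for 17. Among the 17 were Sema3e and Plxna1, whose share was 0 in all 6 libraries, and Plxnb3, with at most 5 counts in a library. The same tally over all genes was not made, so whether the counts of 5 and 3 differ from those of other genes was not tested. Sema3c, Plxna3 and Sema4a are given in full and were chosen after the shares had been seen. In Sema4f, by contrast, the share was 1.08% and 2.24% in the knockout, against 5.02% and 3.72% in wild type at DIV1. Sema3c-202, which covers the 3′ part of the gene and has no coding sequence, took 13.3% and 33.3% at DIV3, 85.4% and 50.2% in the knockout, and 35.6% and 46.0% in wild type at DIV1. Of its 4075 bases, 441 lie outside the coding transcript Sema3c-201. Plxna3-209, annotated likewise, took 47.6% and 14.5% in the knockout, against 5.70% and 11.1% in wild type at DIV1 (adjusted p = 0.55, edgeR diffSpliceDGE). Retained-intron transcripts of Sema4a summed to 48.1% and 41.8% in the knockout, against 7.72% and 19.4% in wild type at DIV1. Usage of Sema3c and of Sema4a did not pass the same test in the knockout either. In these 3 genes the knockout libraries were above the wild-type libraries of DIV1, and in Sema3c and Plxna3 replicate 1 stood far from replicate 2. Whether usage of Nrp2, Sema6a, Sema6c, Sema6d and Plxna3 was called depended on which knockout library was left out. Such a fit holds 1 knockout library, so the spread within that group is not measured. The number of all genes called also moved with the library left out.

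For DIV3 against DIV1, Sema3a-202 took 3.03% and 0% at DIV3, against 10.3% and 10.6% at DIV1, the rest being nearly all Sema3a-201 with the same coding length of 2316 bases. The usage test of Sema3a gave an adjusted p = 1 (edgeR diffSpliceDGE), and without DIV3 replicate 1, which leaves the library with 0%, the gene was called (adjusted p = 0.00942, in a range over 11 alternatives up to 1). Sema4g was divided nearly evenly between Sema4g-201, at 49.8% and 46.0% at DIV3, against 55.9% and 56.0% at DIV1, and Sema4g-202, a transcript annotated for nonsense-mediated decay. Other members kept a dominant transcript in all 6 libraries: Nrp1-201 held between 90.6% and 96.0%, and Plxnb2-201 between 83.5% and 95.7%.

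**Figure D4:**
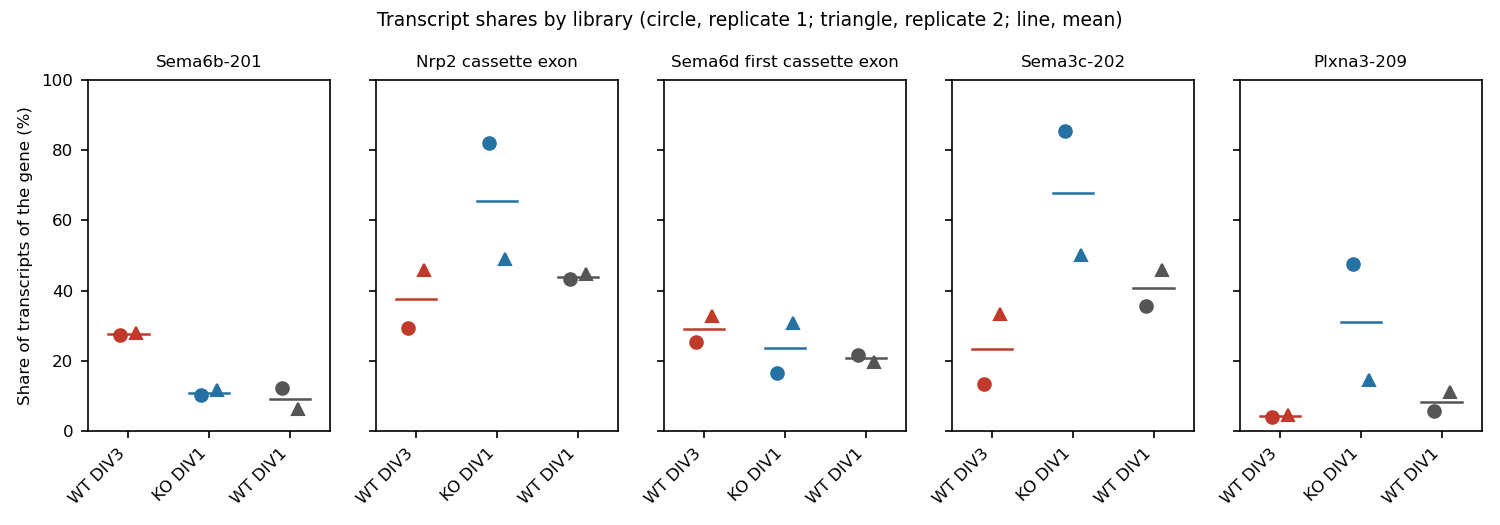
Share (%) of the gene's counts for Sema6b-201, Sema3c-202 and Plxna3-209, and share of the counts that carry the cassette exon of Nrp2 (among a-form transcripts) and the first cassette exon of Sema6d, in each library; circles are replicate 1, triangles replicate 2 and lines the mean of the 2. Sema6b-201 stands at 27.3% and 27.9% at DIV3, above the other 4 libraries, and the 2 knockout libraries are far apart for Nrp2, Sema3c-202 and Plxna3-209.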

How the data were processed

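The authors sequenced 6 stranded total RNA libraries of the cultured neurons. The submitters' processing notes name STAR, RSEM and the mouse build GRCm38 (mm10), without versions or an annotation release. The deposited values are expected counts per gene and transcript, unscaled, with each replicate in a column of its own. RSEM divides reads shared by transcripts by a model, and the error of that division is not in the tables.

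Names, lengths and coordinates came from GENCODE M21 by identifier (99.5% of genes matched). Promoters came from RefSeq, with an entry for 26 of the 31 genes. Expected counts were rounded, filtered with filterByExpr (minimum count 10), scaled by TMM and tested with edgeR 4.0.16 (R 4.3.3) in 1 fit of all 6 libraries, with 3 residual degrees of freedom and Benjamini-Hochberg adjustment over all genes. CPM use TMM-scaled totals. TPM are transcript counts over transcript length, scaled to the same total in each library. The SE is the log2 fold change over the square root of F. Both contrasts share the wild-type DIV1 libraries. Transcript usage was tested with diffSpliceDGE on transcripts with a mean share of at least 5% in a group. The length correction was a lowess trend (span 0.3) of each library, entered as an offset. Alternatives used DESeq2 1.42.0, limma 3.58.1, other scalings and filters, a block on replicate number, and single libraries left out. The tests were tried on simulated data.

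The 31 genes, the lists and the tests were chosen with earlier results of these data known. Named are all 31 genes, Ptbp2, and in each pathway list up to 3 called genes, by smallest adjusted p, beside the most abundant of those not called. The lower genes in the list of coreceptors and in the list of GTPases, exchange factors and adaptors are named too. Transcripts named are from members with at least 5 mean CPM.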

Additional observations from a re-analysis of the deposited data

How the results depend on the processing

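The limits of these values are few libraries, an estimated split of counts and a difference between the knockout libraries that moved with transcript length. With 2 libraries a group, calls depended on which library was left out, and shares of transcripts carry an error of the split that the tables do not give. Removing the length trend took the median of the 30 genes in the knockout to -0.03, against -0.17 as tested; no RNA quality value was analysed here, and its part was not tested. Sema3b, Sema3d, Sema3g and Plxnb3 rest on few counts, and no setting at matched depth was run. Scaling by library totals gave a median of -0.13 over all genes for DIV3, against -0.02 with TMM factors.

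For DIV3, 406 values of single genes under the alternatives kept their sign and side of the threshold, 38 lost the call, 29 gained it and 5 changed sign. For the knockout, 415 kept both, 16 gained a call and 46, none of them called, changed sign. Causes were not tested unless the alternative itself uses fewer libraries.

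For DIV3, Sema4g was -0.042 with library totals, -0.028 with the length offset and -0.026 with the replicate block and the length offset together. With the replicate block 3 of the 30 genes were lower at DIV3, against 12.2% of all genes. The adjusted p was 0.072 for Sema4d, 0.0593 for Sema6d and 0.0919 for Plxnb2 (edgeR, over the 16 alternatives up to 0.198, 0.152 and 0.178). Sema6c was not called with the block, and 21 genes in all had a called transcript usage. The same-numbered deviations correlated at 0.60 between wild type at DIV3 and DIV1 and at -0.02 between the knockout and wild type at DIV1, and the labels do not say that a number pairs cultures. The block left the knockout with 0 of the 30 genes called, with Sema3b and Sema4b both at 0.0.

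For the knockout, DESeq2 called 1 of the 30 genes lower, and 44 higher and 160 lower over all genes. Without the filter on low counts, 2 of the 30 were lower, Sema4d and Nrp1, with 508 higher and 553 lower over all genes. The length offset gave 8 higher and 17 lower over all genes. Signs that changed near 0 were those of Sema4b (-0.003) and Sema7a (-0.002) with DESeq2, Sema4b (-0.024) and Sema7a (-0.02) with library totals, Sema6a (0.013), Sema6b (0.007) and Plxnb2 (0.008) with upper-quartile factors, Sema6a (0.002) with no filter, and Sema3b (0.016) and Sema4b (-0.006) with limma-voom. With the length offset the changed values were 0.111 for Sema3e, 0.154 for Sema5a, 0.072 for Sema5b, 0.195 for Sema6a, 0.03 for Sema6b, 0.02 for Plxna4, 0.179 for Plxnb1, 0.183 for Plxnb2, 0.003 for Plxnc1 and 0.001 for Plxnd1. With the replicate block and the length offset they were 0.013 for Sema3b, 0.11 for Sema3e, 0.154 for Sema5a, 0.071 for Sema5b, 0.189 for Sema6a, 0.03 for Sema6b, 0.017 for Plxna4, 0.182 for Plxnb1, 0.181 for Plxnb2 and 0.002 for Plxnc1.

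Transcript usage for DIV3 was called in 126 genes by the gene-level F test and in 73 by limma diffSplice, each with 1 of the 18, Sema6b, and in 22 with a share of at least 10%. For the knockout, usage was called in 105 genes by the F test and in 19 with a share of at least 10%, and in 0 of the 18.

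With single libraries left out, the 30 genes counted between 8 and 18 higher and between 1 and 6 lower for DIV3, and between 0 and 13 lower for the knockout. Over all genes the counts for DIV3 ran between 1609 and 4527 higher and between 1134 and 4188 lower, and for the knockout between 0 and 2556 higher and between 0 and 2993 lower. Usage was called in between 25 and 64 genes for DIV3, with 0 to 1 of the 18, and in between 23 and 699 for the knockout, with 0 to 4 of the 18. Log2 fold changes that changed sign ran from -0.005 to 0.159 for Sema4g and from -0.155 to 0.013 for Sema4b at DIV3. In the knockout they ran from -0.342 to 0.388 for Sema3b, -0.283 to 0.076 for Sema3e, -0.108 to 0.103 for Sema4b, -0.088 to 0.039 for Sema5b, -0.065 to 0.055 for Sema6a, -0.074 to 0.055 for Sema6b, -0.076 to 0.076 for Sema7a and -0.029 to 0.012 for Plxnb2.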
